A study of Homo sapiens with 24 samples.

Results

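The VEGF family consists of 5 genes, VEGFA, VEGFB, VEGFC, FIGF (the older symbol of VEGF-D) and PGF (placental growth factor). They were followed here on all 24 two-colour arrays of a collection that covers several cancer cell lines and treatments. The members were chosen by name, as every non-control probe that the array files name for 1 of these genes, which gave the same 7 probes on both array designs. They are 5 of 19826 genes that could be named on the larger design (16 arrays) and of 20446 on the smaller (8 arrays).

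The collection was made from established lines of prostate cancer (PC3, DU145, LNCap), head and neck squamous cell carcinoma (FaDu, SAS) and renal cell carcinoma (A498, 786O). Each array carried the RNA of treated cells in Cy5 and that of control cells of the same line in Cy3. Genistein, a soy isoflavone, was given to PC3 and DU145 against cells that the labels call untreated and the methods vehicle-treated. Wogonin, a plant flavone, was given to SAS and FaDu against DMSO, and the chemokine CXCL10 to 786O for 12 or 24 hours against untreated cells. An siRNA to CAV2 was transfected into A498 and 786O, one to LAMB3 into FaDu and SAS, and one to GOLM1 into DU145 and PC3, each against a control siRNA. Transfected miRNAs were compared with a control miRNA: miR-145 in PC3, DU145 and LNCap, miR-143 in DU145 and PC3, miR-23b and miR-24 in PC3, miR-27b in PC3, 786O and A498, miR-29a in SAS and miR-375 in FaDu. There was 1 array for each line and treatment (or time), so a ratio has no replicate check, dyes were not swapped, and dye bias cannot be told apart from the treatment within an array. Only the genistein arrays belong to the reported experiment.

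VEGF ligands are secreted dimers that drive the growth of blood and lymphatic vessels. VEGFA is the main angiogenic ligand and acts through the receptor tyrosine kinases FLT1 (VEGFR-1) and KDR (VEGFR-2). VEGFB and PGF bind FLT1, whereas VEGFC and FIGF, once cleaved by proteases, act mainly through FLT4 (VEGFR-3) on lymphatic endothelium. The neuropilins NRP1 and NRP2 are co-receptors. Tumor cells secrete the ligands and the receptors sit mostly on endothelial cells. VEGFA transcription is known to answer to hypoxia through HIF factors, which are constitutively active in renal carcinoma lines without functional VHL, and to amino acid and endoplasmic reticulum stress through ATF4.

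Of the 13 treatments, 7 were miRNAs. Their mature sequences are given, 5′ to 3′ as RefSeq lists them (GRCh38.p14), with the seed, bases 2 to 8, in capitals. The labels name no arm, and the arm shown is the one that the older, unmarked name stands for.
miR-145 (hsa-miR-145-5p, chr5:149430661-149430683, + strand): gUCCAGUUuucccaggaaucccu
miR-143 (hsa-miR-143-3p, chr5:149428978-149428998, + strand): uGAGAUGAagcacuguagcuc
miR-23b (hsa-miR-23b-3p, chr9:95085265-95085287, + strand): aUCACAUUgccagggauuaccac
miR-24 (hsa-miR-24-3p, chr9:95086064-95086085, + strand, and chr19:13836289-13836310, - strand): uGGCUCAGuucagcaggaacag
miR-27b (hsa-miR-27b-3p, chr9:95085505-95085525, + strand): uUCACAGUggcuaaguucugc
miR-29a (hsa-miR-29a-3p, chr7:130876748-130876769, - strand): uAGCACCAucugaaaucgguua
miR-375 (hsa-miR-375-3p, chr2:219001648-219001669, - strand): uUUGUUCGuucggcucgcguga
The 7 seeds all differ. The genes of miR-143 and miR-145 are neighbors on chromosome 5, and those of miR-23b, miR-27b and a copy of miR-24 on chromosome 9. Sequences of the transcripts' 3′ ends were not used here, so no seed match in a family member was examined.

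Per array, 53.2% to 67.6% of non-control spots had a Cy3 signal well above background and 54.2% to 68.9% a Cy5 signal, and no spot used was saturated. All 48 channels correlated best with another channel of their own labelled line. The other dye of the same array was among those channels, so this is no check of an array's line label. Within a design, LNCap carried the prostate marker KLK3 (level 2.83 against at most -4.59 in the other lines of the larger design), FaDu and SAS carried KRT5 (3.03 to 6.53 against at most -5.91) and the renal lines PAX2 (1.70 to 1.93 against at most -5.45, and 1.65 to 3.01 against at most -5.75 on the smaller design). CA9, also on the renal list, was at -5.61 to -2.52 in the renal lines of the larger design and reached 0.36 in SAS there. Of 5 endothelial markers, CDH5 was above background in 24 of 24 control channels, VWF in 13, PECAM1 in 7, TEK in 3 and CLDN5 in 0, and their part in the results was not tested. Of the siRNA targets, CAV2 was at -3.80 and -3.20, GOLM1 at -3.02 and -4.15 and LAMB3 at -2.50 (FaDu) and -0.89 (SAS) on the log2 ratio scale. Some controls stood apart from the others of their line. The control channels of miR-23b, miR-24 and miR-27b in PC3 correlated at 0.991 to 0.992, more than other PC3 controls of the design (0.963 to 0.970), so these 3 comparisons probably share a control RNA and it was counted as 1 control. The 786O control of the miR-27b array correlated with the other 786O controls at only 0.917 to 0.928, against 0.984 between those. The FaDu control of the miR-375 array correlated with the other FaDu controls at 0.957 to 0.966, against 0.982 between those.

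To see in which treatments a family member departed from its control, the log2 ratio of treated over control was read on each array for the brightest probe of each gene, wherever at least 1 channel was well above background. This was the case for 103 of the 120 values. A log2 ratio past 1, a difference of more than 2-fold, was called higher or lower by size, with no test. Of the 103 values, 13 (12.6%) were higher and 9 (8.74%) lower. Over all named genes and the same arrays, 4.76% of the measured values were above 1 and 3.86% below -1. All 22 called values lay on 12 of the 16 arrays of the larger design. On the 8 arrays of the smaller design the 32 measured values lay between -0.50 and 0.43. Where both channels had to be well above background, 5 of 94 family values were higher (5.32%) and 9 lower (9.57%), against 2.65% and 3.32% of all genes. The other 8 higher values, 4 of FIGF and 4 of PGF, thus came from arrays whose control channel was dim. Leaving out the miR-375 FaDu and miR-27b 786O arrays gave 12 higher and 8 lower values, and averaging the 3 PC3 arrays with the shared control gave 11 and 6. The median of the family was -0.03 and that of all genes 0.01.

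**Figure D1:**
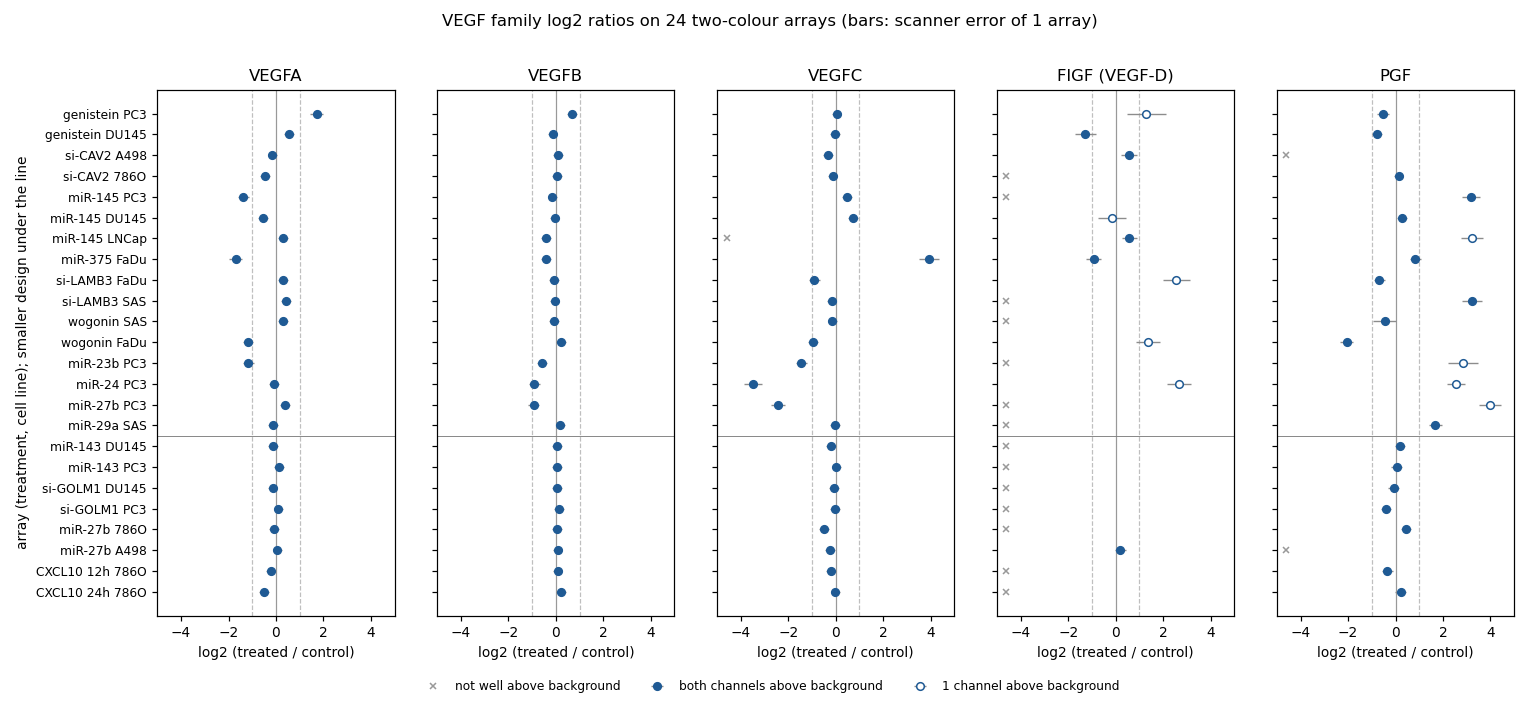
Log2 ratio of treated over control (x axis) for each family member (panels) on each of the 24 arrays (y axis, the 8 arrays of the smaller design under the line). Filled points had both channels well above background, open points only 1, crosses neither; bars are the scanner software's error for 1 array and dashed lines mark 1 and -1. VEGFA and VEGFC lay past 1 or -1 on 5 and 4 arrays, VEGFB stayed inside the dashed lines on all 24, and PGF reached the highest value, 3.98.

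VEGFA was bright on every array and went past the limit on 5, once upward and 4 times downward. Its brightest probe lay on chromosome 6 between 43746223 and 43746634 of hg19, a span of 412 bases that crosses an exon junction. It was 3.26-fold higher after genistein in PC3 (log2 ratio 1.71 ± 0.26, the scanner software's error for 1 array), where 16.3% of genes went past the limit. In DU145 the genistein value was 0.56 ± 0.21, on an array with 11.4% of genes past it. VEGFA was lower with miR-375 in FaDu (-1.70 ± 0.26), with miR-145 in PC3 (-1.37 ± 0.24), with wogonin in FaDu (-1.18 ± 0.23) and with miR-23b in PC3 (-1.16 ± 0.23). These arrays had 23.9%, 14.3%, 8.55% and 11.0% of genes past the limit. The same miR-145 gave -0.53 in DU145 and 0.29 in LNCap, and wogonin gave 0.29 in SAS, so the sign differed between lines for both treatments. On the remaining arrays of the larger design VEGFA lay between -0.45 (si-CAV2 in 786O) and 0.44 (si-LAMB3 in SAS). CXCL10 gave -0.23 after 12 hours and -0.49 after 24 hours in 786O, the lowest values of this probe on the smaller design.

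A second VEGFA probe lay further 3′, between 43753511 and 43753570 of chromosome 6. It was above background on all 24 arrays and read higher than the junction probe on 15 of 16 arrays of the larger design and on 7 of 8 of the smaller. With this probe VEGFA passed the limit on the genistein PC3 array alone (1.96 ± 0.27). The 4 low values became -0.94 (miR-375 FaDu), -0.72 (miR-145 PC3), -0.96 (wogonin FaDu) and -0.60 (miR-23b PC3), all in the same direction but inside the limit. The widest gap was on the miR-24 PC3 array, where the junction probe gave -0.08 and the 3′ probe 0.76. On the CXCL10 arrays the 3′ probe gave 0.18 (12 hours) and 0.01 (24 hours), so it showed no lower VEGFA there. The median difference, junction minus 3′ probe, was -0.30 on the larger design and -0.29 on the smaller. Whether the probes see different transcripts or differ in dye bias was not tested, and dyes were not swapped.

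**Figure D2:**
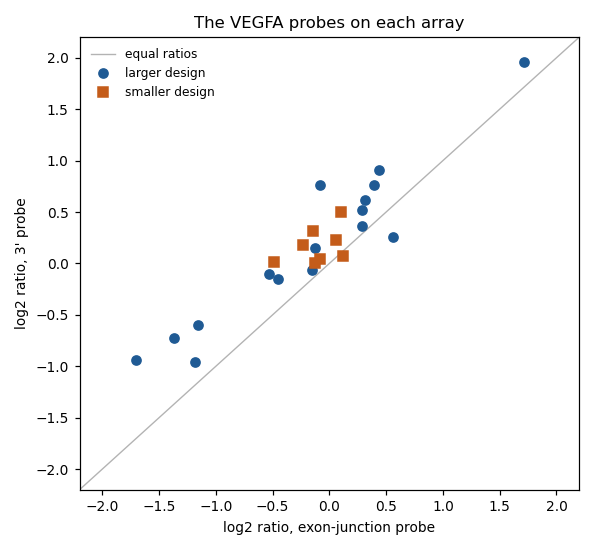
Log2 ratio of the VEGFA exon-junction probe (x axis) and the 3′ probe (y axis), 1 point for each of the 24 arrays, with the line of equal ratios. Most points lie above the line, and the miR-375 FaDu, miR-145 PC3, miR-23b PC3 and wogonin FaDu points sit below -1 on the x axis but above -1 on the y axis.

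A ratio also depends on the control it was set against, and VEGFA levels of control cells of 1 line differed between arrays. On a scale of log2 processed signal minus the 75th percentile of the channel, the PC3 controls of the larger design were at 1.04 (genistein array), 2.97 (miR-145 array) and 2.09 (shared control). The genistein-treated PC3 cells were at 2.74. Their control was thus the lowest of the 3, and their treated level lay between the other controls. The miR-145 array was the opposite case, with the highest PC3 control and a treated level of 1.61. In FaDu the controls were at 4.35 (miR-375 array), 3.65 (wogonin) and 1.79 (si-LAMB3), and the treated levels of the miR-375 and wogonin arrays, 2.67 and 2.46, lay inside that spread. Of the 5 called VEGFA values, only miR-23b in PC3 brought VEGFA to a level outside the other controls of the line (0.93). Treated and control levels come from different dyes and arrays, and what set the control levels apart was not tested.

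Over the whole family, 21 of the 22 called values had another control of the same line on the design. In 13 of them the treated level lay outside the range of the other controls, and in 17 the array's own control did. Each range came from at most 2 other controls, so a level can easily lie outside it and the counts are no test. The shared PC3 control entered anew for each of miR-23b, miR-24 and miR-27b, and no share over all genes was taken.

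**Figure D3:**
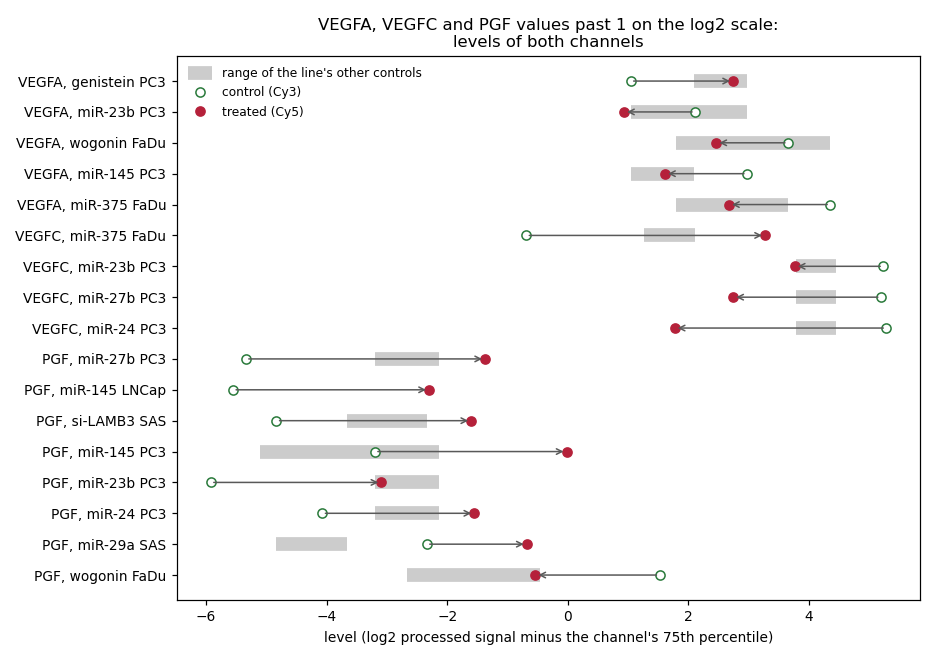
Levels of the control (open) and treated (filled) channel, as log2 processed signal minus the channel's 75th percentile (x axis), for the called values of VEGFA, VEGFC and PGF (y axis); arrows run from control to treated and grey bars span the other controls of the line on the same design. The VEGFC and most PGF arrows end outside the grey bars, and 4 of 5 VEGFA arrows end inside them.

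VEGFB, which is expressed in most tissues and is little induced by hypoxia, was the steadiest member. It was above background on all 24 arrays, its log2 ratios ran from -0.94 to 0.68, and none was past the limit. The lowest values were those of miR-27b (-0.94 ± 0.22), miR-24 (-0.90 ± 0.22) and miR-23b (-0.57 ± 0.21) in PC3, the 3 comparisons with the shared control. The highest was that of genistein in PC3 (0.68 ± 0.21), followed by 0.22 with wogonin in FaDu. On the smaller design VEGFB lay between 0.04 and 0.21. Its probe lay on chromosome 11 from 64006111 to 64006170.

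VEGFC, the lymphangiogenic ligand, held the widest range among the members that were bright. Its single probe (chromosome 4, 177604823 to 177604882, reverse strand) was above background in both channels on 23 arrays and in neither channel of LNCap. In PC3 it was 11.2-fold lower with miR-24 (log2 ratio -3.49 ± 0.38), 5.41-fold lower with miR-27b (-2.44 ± 0.30) and 2.73-fold lower with miR-23b (-1.45 ± 0.24). The miR-24 and miR-27b arrays had 28.2% and 13.6% of genes past the limit. The control levels of these arrays were 5.28, 5.19 and 5.23, and since the control is probably shared these are not independent readings of it. The other PC3 controls of the design were at 3.78 and 4.45. The treated levels were 1.77 (miR-24), 2.74 (miR-27b) and 3.76 (miR-23b), so that of miR-23b was just under the lower of those controls and the others were well under it. In the renal lines, miR-27b gave VEGFC values of -0.50 ± 0.21 (786O) and -0.26 ± 0.21 (A498), on arrays with 2.73% and 2.52% of genes past the limit.

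The opposite extreme was miR-375 in FaDu, where VEGFC was 15.4-fold higher (log2 ratio 3.94 ± 0.42). The control level of this array, -0.69, was below the other FaDu controls (1.27 and 2.11), and the treated level, 3.27, was above them. The treated level therefore lay closer to those controls than to its own. VEGFA was past the limit in the other direction on this array. The other FaDu arrays gave -0.96 ± 0.22 (wogonin) and -0.90 ± 0.22 (si-LAMB3). miR-145 gave 0.48 in PC3 and 0.72 in DU145. The remaining VEGFC values of the larger design lay between -0.34 and 0.04, among them genistein with 0.04 in PC3 and -0.03 in DU145.

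FIGF, the X-linked gene of VEGF-D (probe at 15363783 to 15363842, reverse strand), was the dimmest member. Its main probe was well above background in at least 1 channel on 9 of 16 arrays of the larger design and on 1 of 8 of the smaller. Both channels were above background only in A498 (log2 ratio 0.56 ± 0.34 with si-CAV2 and 0.20 ± 0.23 with miR-27b), LNCap (0.58 ± 0.32), FaDu with miR-375 (-0.93 ± 0.32) and DU145 with genistein (-1.27 ± 0.43). For 4 values past the limit only the treated channel was above background, so only a lower bound holds. Measured against the lowest signal that counted as above background on the array, FIGF was at least 4.65-fold higher with miR-24 in PC3, 3.81-fold with si-LAMB3 in FaDu, 2.22-fold with wogonin in FaDu and 1.5-fold with genistein in PC3. These bounds use 1 array each and are open to dye bias. The last of them lies inside the limit of 2-fold. A value of this probe that passed the filter through its treated channel had to be high, so the 4 higher values of 10 measured say nothing of FIGF in general. The si-LAMB3 FaDu array had 9.39% of genes past the limit.

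PGF, the FLT1 ligand first found in placenta, was higher on 7 of 22 arrays that measured it (31.8%) and lower on 1 (4.55%). Over all genes the shares were 4.76% and 3.86%. The higher values of miR-145 in LNCap and of miR-23b, miR-24 and miR-27b in PC3 passed the filter through the treated channel alone. They therefore had to be high, and the count says little of PGF in general. The brighter PGF probe lay on chromosome 14 from 75408540 to 75408599 (reverse strand), and a second probe at 75413437 to 75413496 was above background on only 2 of 24 arrays. In PC3 the miR-145 array gave 3.18 ± 0.36, with both channels above background, a control level of -3.20 and a treated level of -0.02. The shared PC3 control was below background, which leaves lower bounds of 12.5-fold for miR-27b, 5.73-fold for miR-24 and 4.0-fold for miR-23b. Their measured log2 ratios were 3.98 ± 0.48, 2.54 ± 0.37 and 2.85 ± 0.64, and their treated levels -1.37, -1.55 and -3.09. The other PC3 controls were at -2.13 and -3.20, so PGF after miR-23b lay between the PC3 controls of other arrays and after miR-24 and miR-27b above them. In LNCap, miR-145 left PGF at least 8.1-fold above its control (log2 ratio 3.24 ± 0.46), on an array with 9.1% of genes past the limit. DU145 gave 0.29 ± 0.21 with the same miRNA, on an array with 4.95% past it.

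In SAS, PGF was higher with si-LAMB3 (3.21 ± 0.42) and with miR-29a (1.67 ± 0.27), on arrays with 14.3% and 8.94% of genes past the limit. Both treated levels, -1.60 and -0.68, were above all SAS controls (-4.83 to -2.34). Wogonin gave -0.46 ± 0.47 in SAS, less than its error, on an array with 13.0% past the limit. In FaDu, wogonin was followed by a 4.16-fold lower value (-2.06 ± 0.28), from a control that was the highest of the line (1.52, against -0.46 and -2.67) to a treated level of -0.54. si-LAMB3 gave -0.68 ± 0.22 and miR-375 0.83 ± 0.24 there. Genistein gave -0.53 ± 0.25 in PC3 and -0.77 ± 0.22 in DU145. PGF signals were low, and with normexp, a background correction that shrinks dim ratios, the highest PGF value was 1.18 in place of 3.98 and that of si-LAMB3 in SAS 0.88 in place of 3.21.

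The arrays of si-CAV2 (A498 and 786O), with 2.04% and 1.92% of genes past the limit, of miR-145 in DU145, of wogonin in SAS and of the smaller design held no called family member. Shares of genes past the limit on the latter were 2.53% (miR-143 DU145), 1.95% (miR-143 PC3), 1.1% (si-GOLM1 DU145), 2.69% (si-GOLM1 PC3), 1.84% (CXCL10 12 hours) and 1.9% (CXCL10 24 hours). The wogonin SAS array had 13.0% of genes past it and miR-145 in DU145 4.95%.

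The labels let 9 treatments be averaged over lines, or over times for CXCL10, and limma tested the mean log2 ratio against 0 with Benjamini-Hochberg adjustment over all probes of the design. Lines stand in for replicates in this fit, so it asks only whether lines moved together. None of 50 tests on family probes passed the adjusted threshold of 0.05, and 6 had an unadjusted p under 0.05. Among all probes 7.94% passed for genistein, 6.04% for si-LAMB3, 4.69% for miR-145, 2.73% for wogonin, 0.404% for miR-27b, 0.209% for CXCL10, 0.188% for si-GOLM1, 0.0847% for si-CAV2 and 0.0626% for miR-143. VEGFA averaged 1.13 ± 0.45 (SE) over the genistein arrays by the junction probe (limma, adjusted p = 0.155) and 1.11 ± 0.45 by the 3′ probe (limma, adjusted p = 0.162). PGF averaged 2.24 ± 0.78 over the 3 miR-145 arrays (limma, adjusted p = 0.146). On the smaller design, VEGFC averaged -0.38 ± 0.10 over the miR-27b arrays of the renal lines (limma, adjusted p = 0.209), and the 3′ probe of VEGFA 0.41 ± 0.09 over the si-GOLM1 arrays (limma, adjusted p = 0.154). Both of these passed after normexp and loess (limma, adjusted p = 0.0483 and 0.0261). The junction probe of VEGFA averaged -0.02 on the same si-GOLM1 arrays. For CXCL10 the junction probe averaged -0.36 ± 0.12 over both times (limma, adjusted p = 0.447), while the 3′ probe was at 0.18 (12 hours) and 0.01 (24 hours).

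The control channels show the transcript levels of the ligands in the control cells of each line. In bulk RNA, fewer cells of a type and less RNA per cell cannot be told apart. VEGFB and VEGFC differed between the 7 lines of the larger design (moderated F of limma, adjusted p = 0.000932 and 7.12e-05), as did PGF (limma, adjusted p = 0.0100) and the 3′ probe of VEGFA (limma, adjusted p = 0.0292), while the junction probe of VEGFA did not pass (limma, adjusted p = 0.115). Line differences were the rule, with 60.0% of all probes called on this design and 36.1% on the smaller. Lines with 1 control, LNCap, A498 and 786O, were assumed to vary like the others, and the controls themselves differed in kind, from untreated cells to transfected ones.

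VEGFC was highest in PC3 (mean level 4.48 ± 0.73, SD, n = 3) followed by 786O (3.70, n = 1), SAS (3.56 ± 0.36, n = 3), A498 (2.73, n = 1) DU145 (1.88 ± 0.39, n = 2) and FaDu (0.89 ± 1.44, n = 3). In LNCap it was not well above background. PC3 lay above FaDu by 3.59 ± 0.62 (SE; limma, adjusted p = 0.00124), a pair for which 38.6% of all probes were called. FaDu lay above LNCap by 7.51 ± 0.88 (limma, adjusted p = 0.000176), where the LNCap signal is a background reading and 25.0% of probes were called. The other neighbors in this order had adjusted p from 0.334 to 0.936 in limma. On the smaller design PC3 was again highest (5.27 ± 0.28, n = 2), 2.01 ± 0.34 above 786O (limma, adjusted p = 0.00922), where 25.7% of probes were called; without the miR-143 or the si-GOLM1 control of PC3 the adjusted p was 0.0520 and 0.0810. 786O, A498 and DU145 lay within 0.10 of each other there, at 3.26, 3.22 and 3.16.

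VEGFB was bright in all lines, from 4.55 ± 0.36 in SAS (n = 3) to 3.19 ± 0.25 in FaDu (n = 3), and lowest in LNCap (1.44, n = 1). FaDu lay above LNCap by 1.74 ± 0.36 (SE; limma, adjusted p = 0.00577), and the other neighbors had adjusted p from 0.213 to 0.926. On the smaller design VEGFB lay between 4.04 and 4.47 in the 4 lines and the lines did not pass the test (limma, adjusted p = 0.565).

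By the junction probe VEGFA was highest in DU145 (3.67 ± 0.19, n = 2), 786O (3.61, n = 1), FaDu (3.26 ± 1.32, n = 3) and A498 (3.23, n = 1), and lower in PC3 (2.04 ± 0.97, n = 3), SAS (1.83 ± 0.03, n = 3) and LNCap (1.55, n = 1). No neighbors in this order passed the test (limma, adjusted p from 0.381 to 0.983). The 3 FaDu controls ran from 1.79 to 4.35. Without the si-LAMB3 FaDu control the lines differed by the junction probe too (limma, adjusted p = 0.0131). The call of the 3′ probe was lost without the DU145 control of genistein (limma, adjusted p = 0.0543) or without the SAS control of si-LAMB3, wogonin or miR-29a (0.0627, 0.0628 and 0.0652). On the smaller design, by the junction probe, DU145 (4.10, n = 2) and A498 (3.89, n = 1) stood over 786O (2.96 ± 0.37, n = 3) and PC3 (2.54 ± 0.34, n = 2). The lines differed by the junction probe (limma, adjusted p = 0.0286) and by the 3′ probe (0.00376). The call of the junction probe was lost in 6 of 7 fits with 1 control left out, with an adjusted p of up to 0.120 (limma), and was kept without the miR-27b control of 786O (0.00318). By the 3′ probe the order was another, A498 (2.81, n = 1), DU145 (2.09 ± 0.12, n = 2), 786O (1.89 ± 0.16, n = 3) and PC3 (0.44 ± 0.11, n = 2). DU145 lay only 0.20 ± 0.19 (SE) above 786O by this probe (limma, adjusted p = 0.457), and 786O lay 1.45 ± 0.19 above PC3 (limma, adjusted p = 0.00394).

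PGF on the larger design was highest in 786O (1.33, n = 1), followed by DU145 (-0.53 ± 0.88, n = 2) and FaDu (-0.53 ± 2.10, n = 3). PC3 (-3.48 ± 1.51, n = 3) and SAS (-3.61 ± 1.25, n = 3) came next. In LNCap and A498 PGF was not well above background. FaDu lay 2.95 ± 1.06 above PC3 (limma, adjusted p = 0.0497), a call that was lost in 8 of 11 fits with 1 control left out, up to an adjusted p of 0.183 without the wogonin FaDu control. On the smaller design the 786O control of the miR-27b array was at 0.74 and those of the CXCL10 arrays at -2.33 and -2.77. With all 3 the lines did not pass the test (limma, adjusted p = 0.0903), and without the miR-27b control they did (limma, adjusted p = 0.000592). PGF was again not above background in A498. The mean of 786O was -1.45 with that control and -2.55 without it. FIGF was above background in the A498 control of both designs, in LNCap and in single controls of DU145 and FaDu.

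**Figure D4:**
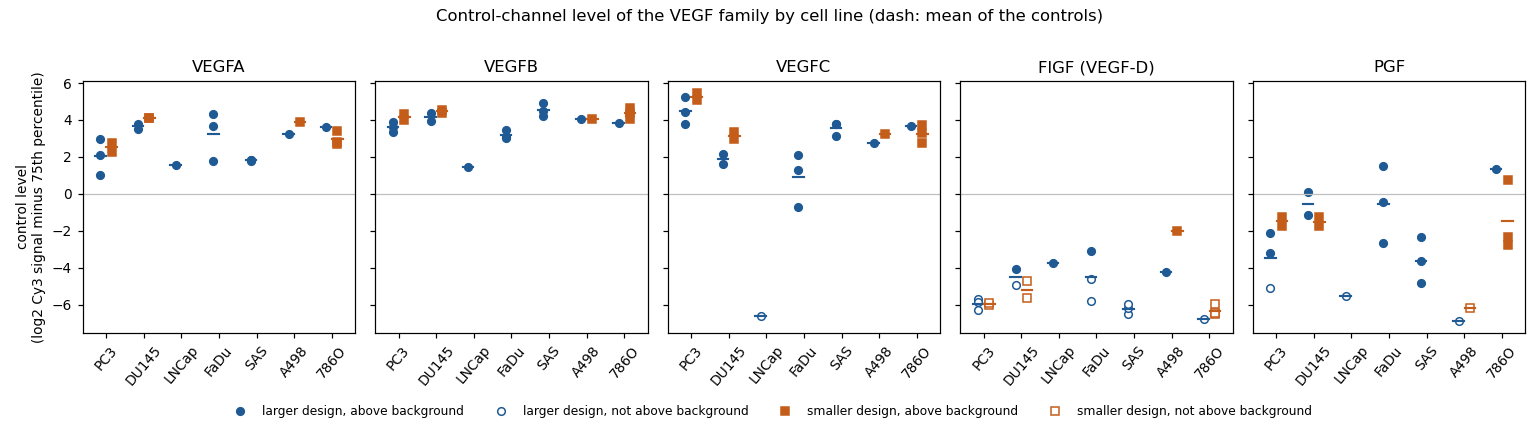
Control-channel level (y axis, log2 Cy3 signal minus the 75th percentile of the array) of each member (panels) in each line (x axis), 1 point for each control and a dash at their mean; open symbols were not above background, and circles are the larger and squares the smaller array design, whose levels are not on a common scale. VEGFB is high in every line, VEGFC is not above background in LNCap, and the PGF controls of PC3, FaDu, SAS and 786O are spread widely.

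The other genes of the pathway were described by count from a list of 40 genes. FLT1 and KDR signals were mostly faint. FLT1 was above background on 1 of 24 arrays, KDR on 6 and FLT4 on 16, whereas NRP1 was above background on all 24 and NRP2 on 16. The FLT1 value, lower with wogonin in SAS (-1.57 ± 1.13), had only its control channel above background. FLT4 was above background in both channels on every DU145 array. KDR was measured on 5 PC3 arrays and 1 of 786O. In PC3 it was lower with genistein (-2.26 ± 0.31), on the array with the highest VEGFA ratio. The KDR control level of that array, -1.07, was far above the other PC3 controls of the design (-4.71 to -4.41), and the treated level, -3.34, was still above them. KDR was higher with miR-27b (1.35 ± 0.53) and, by a lower bound of 3.26-fold, with miR-24. NRP1 stayed between -0.89 and 0.82 on every array, and NRP2 was past the limit with miR-145 in PC3 (1.54 ± 0.25) and, with a dim control, with genistein in PC3. FLT4 stayed between -0.52 and 0.62. Of the 63 receptor values measured, 4 were higher (6.35%) and 2 lower (3.17%), near the 4.76% and 3.86% of all genes, with a median of 0.00. After normexp 2 of these 6 calls stayed past the limit.

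Of the genes that process VEGFC and FIGF, 2 of 3 measured were past the limit with miR-23b and with miR-27b in PC3 and 4 of 4 with miR-24, the arrays on which VEGFC was low and on which 11.0%, 13.6% and 28.2% of all genes were past it. ADAMTS3, the protease that activates VEGFC, and CCBE1, its cofactor, were higher with miR-24 (1.61 and 1.67), miR-27b (1.63 and 1.76) and miR-23b (1.01 and 1.12). FURIN, a proprotein convertase, was lower with miR-24 (-1.75) and at 0.49 and 0.25 with miR-23b and miR-27b. These 3 arrays probably share 1 control. CCBE1 was also higher with miR-375 in FaDu, where VEGFC was high, by a lower bound of 3.54-fold, and lower with miR-145 in PC3 (-1.01). PCSK5, another convertase, was lower on 6 arrays, the lowest being miR-375 in FaDu (-2.04), and on the miR-24 array only a lower bound of 1.18-fold higher holds. Of 84 values of the 4 genes, 8 were higher and 8 lower (9.52% each, against 4.76% and 3.86% of all genes), with a median of -0.08. These signals were dim, and after normexp 2 of the 16 calls stayed past the limit. Of the ADAMTS3 and CCBE1 values with the 3 miRNAs, that was CCBE1 with miR-27b alone (1.10), the others being 0.47 to 0.87, and FURIN with miR-24 was at -0.40.

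Amino acid stress genes, which answer to ATF4, were past the limit on the arrays where VEGFA was most extreme. All 6 (ATF4, DDIT3, TRIB3, ASNS, CHAC1, SESN2) were higher with genistein in PC3, with a median of 3.52, and all 6 lower with miR-375 in FaDu, with a median of -2.86. Of all genes, 9.4% were higher on that PC3 array and 13.3% lower on that FaDu array. With wogonin in FaDu 4 were lower (median -1.59), as were 3.02% of all genes. With genistein in DU145 and si-LAMB3 in SAS 5 were higher (medians 1.85 and 1.66), where VEGFA was at 0.56 and 0.44. The shares of all genes that were higher there were 5.64% and 7.39%. With miR-145 or miR-23b in PC3, where VEGFA was also low, none was past the limit (medians 0.10 and -0.28). With miR-29a in SAS 4 were higher, as were 4.96% of all genes, while VEGFA was at -0.13. Over all arrays 23 of 144 values were higher (16.0%) and 10 lower (6.94%), against 4.76% and 3.86% of all genes, with a median of -0.01.

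Hypoxia-inducible genes gave another order. With miR-23b in PC3 and wogonin in FaDu, on both of which VEGFA was low, 5 of 7 measured genes were lower (medians -1.23 and -1.27), among them ANGPTL4, a secreted lipase inhibitor (-3.42), and NDRG1 (-2.66), respectively. On these arrays 5.01% and 3.02% of all genes were lower. With miR-27b in PC3 4 of 8 were lower, as were 5.2% of all genes, while VEGFA was at 0.39. With miR-145 in PC3 3 were higher and 1 lower while VEGFA was low. With genistein in PC3 2 were higher, DDIT4 most (3.20), and 3 lower. All-gene shares were 8.46% higher and 5.81% lower with miR-145 and 9.4% and 6.86% with genistein. With miR-375 in FaDu, where VEGFA was lowest, 3 were higher and 2 lower (median -0.30), against 10.6% and 13.3% of all genes. With wogonin in SAS 3 were lower, as were 6.58% of all genes, while VEGFA was at 0.29. Over all arrays 16 of 178 values were higher (8.99%) and 27 lower (15.2%), against 4.76% and 3.86% of all genes, with a median of -0.05. Of the oxygen-sensing genes themselves, EPAS1, which encodes HIF-2α, was lower on the 3 PC3 arrays on which VEGFC was low (-2.38 with miR-24, -1.79 with miR-27b, -1.06 with miR-23b) and higher with genistein in PC3 (1.77) and miR-145 in LNCap (3.49). Those 3 PC3 arrays probably share 1 control, and 28.2%, 13.6% and 11.0% of all genes went past the limit on them. HIF1A and VHL stayed inside the limit wherever they were measured. Of the 180 values of these 8 genes, 3 were higher (1.67%) and 10 lower (5.56%), against 4.76% and 3.86% of all genes, and after normexp 5 of the 13 calls stayed past the limit.

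**Figure D5:**
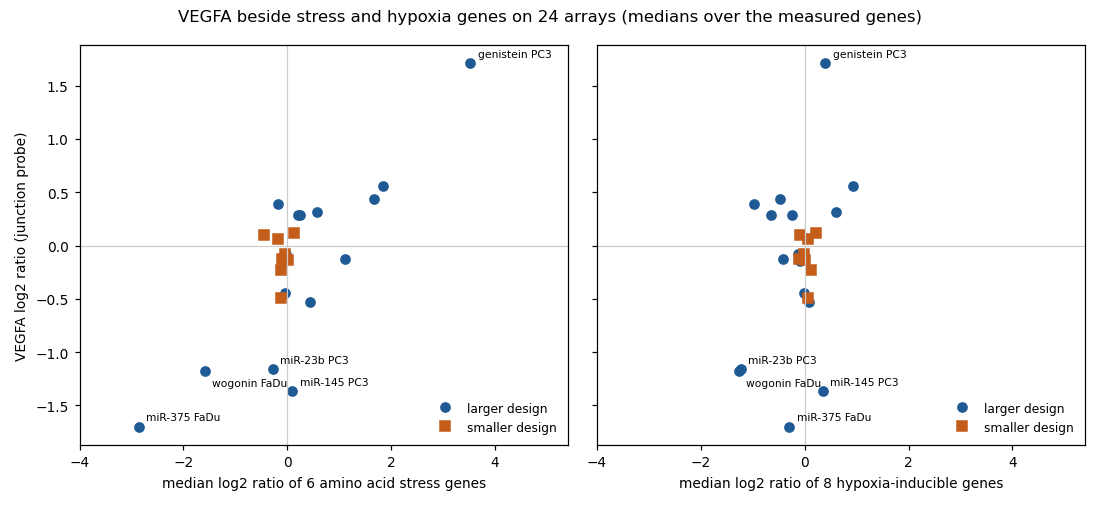
VEGFA log2 ratio (y axis) against the median log2 ratio of the measured amino acid stress genes (left, x axis) and hypoxia-inducible genes (right, x axis), 1 point for each of the 24 arrays; arrays with VEGFA past the limit are named. The genistein PC3 and miR-375 FaDu arrays lie at the far ends of the left panel, and miR-23b PC3 and wogonin FaDu at the low end of the right one.

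Of 82 values of the related PDGF ligands, 6 were higher (7.32%) and 8 lower (9.76%). Of 77 values of the vessel factors ANGPT1, ANGPT2, FGF2, THBS1 and EFNB2, 8 were higher (10.4%) and 6 lower (7.79%). Over all genes the shares were 4.76% and 3.86%. After normexp 6 of the 14 PDGF calls and 7 of the 14 vessel factor calls stayed past the limit. PDGFC was higher with miR-24 (1.57), miR-23b (1.63) and genistein (1.08) in PC3. It was at 0.76 with miR-27b in PC3, which probably shares the control of miR-24 and miR-23b. With miR-375 in FaDu (-1.49) and si-LAMB3 in SAS (-1.25) PDGFC was lower. EFNB2, the ligand that marks arterial endothelium, was higher with genistein in DU145 (2.07) and PC3 (1.45) and lower with miR-24 in PC3 (-1.44), with miR-29a in SAS (-1.40) and, just past the limit, with miR-27b in PC3 (0.499 of its control).

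Over the 16 arrays of the larger design and 10450 other genes above background in all their channels, the log2 ratios most like those of VEGFA were of TNFRSF10B, a death receptor (Pearson r = 0.92), EPRS, a tRNA synthetase (0.89), the unnamed transcript FLJ43315 (0.87), XPOT, a tRNA exporter (0.85), and SLC7A1, an amino acid transporter (0.84). Those most like VEGFC were of HRH1, a histamine receptor (0.95), FIGNL2 (0.90), SLCO4A1, an organic anion transporter (0.90), C14orf109 (0.88) and GPR39 (0.88). The rank correlation with VEGFC was lower, 0.53 for SLCO4A1 and 0.66 for C14orf109. These are descriptions over arrays that share lines, slides and, for 3 of them, a control, and the few extreme arrays weigh most.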

How the data were processed

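The 24 two-colour Agilent arrays were hybridised with control RNA in Cy3 and treated RNA in Cy5, per the labels. The authors scanned them and ran Agilent Feature Extraction 10.7.3.1, which, per the file headers, deposited a processed intensity for each channel and a log10 ratio of Cy5 over Cy3 with its error. Groups were taken from the labels. The log10 ratio was multiplied by 3.3219 to a log2 ratio, control spots were left out, spots of a probe were averaged and a gene was read by its brightest probe. A value counted as measured where at least 1 channel was well above background. Levels were log2 intensity minus the 75th percentile of the channel, set only against the same design. A lower bound was the treated signal over the lowest signal well above background on the array, or over the dim probe's own signal where that was higher. For these bounds alone, signals were normalised by loess within arrays and Aquantile scaling between arrays. The bounds thus rest on another normalisation than the log2 ratios beside them.

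Treatment means and control levels were fitted with limma 3.58.1 in R 4.3.3 (lmFit, eBayes), within each array design, for probes above background on at least 0.5 of the arrays, with Benjamini-Hochberg adjustment over all probes and a threshold of 0.05. The fits were tested on simulated data. Nothing in the labels ties arrays to separate cultures, so p-values measure only the spread between these samples. The number of arrays limits the precision. Probe positions are those of the array files (hg19), and miRNA sequences are from RefSeq.

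The text names the 5 members, some of the pathway genes past the limit on arrays described, all receptors, the siRNA targets, line markers, and the 5 genes most like VEGFA and VEGFC. Other pathway genes past the limit enter the counts only. Members, lists and rules were chosen with earlier results of these data known. Alternatives covered background correction (normexp with offset 50, none), centring, probe averaging, dye and slide offsets, the limit, filters, scaling, the slide as a random block, the shared control and left-out arrays.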

Additional observations from a re-analysis of the deposited data

Results flagged for a closer look

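For 4 family values the same treatment gave opposite signs in different lines. Each rests on 1 array per line, and the difference was not tested. VEGFA was at 0.29 ± 0.21 with miR-145 in LNCap and at -1.37 ± 0.24 in PC3, 1.66 apart on the log2 ratio scale. With wogonin it was at 0.29 ± 0.21 in SAS and -1.18 ± 0.23 in FaDu, 1.47 apart. FIGF was at 1.30 ± 0.83 with genistein in PC3, where the control was not above background, and at -1.27 ± 0.43 in DU145, 2.57 apart. PGF was at 3.21 ± 0.42 with si-LAMB3 in SAS and -0.68 ± 0.22 in FaDu, 3.89 apart. LAMB3 itself was at -0.89 in SAS and -2.50 in FaDu on these arrays.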

How the results depend on the processing

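Of 13 higher and 9 lower family values, 4 were higher after normexp and loess, 8 without background subtraction and 5 with both channels above background. Lower values numbered 15 after subtracting the mean of other treatments of the design, 14 after that of the slide, 19 at a limit of 0.5 and 4 at 1.5. All 22 called values kept their sign under 6 alternative ways of making the ratio, and between 12 (normexp) and 22 (median centring) stayed past 1. Keeping the sign is a weak check. Array medians ran only from -0.101 to 0.0953, so centring could not turn a called value, and probe averaging leaves genes with 1 probe unchanged. After normexp and loess, 1 family probe passed for si-GOLM1 and 1 for miR-27b in place of none. With each array left out in turn, between 0 and 0 family probes passed for any treatment mean, from 3 to 5 (4 with all) differed between lines on the larger design, and from 1 to 4 (3 with all) on the smaller. Chosen after seeing the data, counting a dim channel only by its lower bound gave 12 higher and 9 lower values, and normexp and loess gave 44 higher (68 before) and 49 lower (71 before) pathway list values, with 92 of the 139 calls past the limit in the same direction. The slide as a random block had a correlation of 0.0188, and the smaller design had 1 slide. No paired analysis was possible because each line and treatment has 1 array. Signal over background limits FIGF and PGF most.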
